A study of Mus musculus with 6 samples.

Results

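The cells described here were monocytes and macrophages that carried RNA of the cell division genes Mki67 and Top2a, taken from the injured rotator cuff enthesis of mice, the zone where tendon inserts into bone. They were chosen by measured values. A barcode was taken when it held 1000 or more unique molecular identifiers (UMIs, each standing for 1 captured RNA molecule) and 200 or more genes, with no more than 10% of its UMIs mitochondrial. It also needed 2 or more UMIs of Mki67 and Top2a together and 2 or more of Csf1r, Adgre1 and Cd68 together. Barcodes were left out when Ngp, Camp and Ltf (granule genes of maturing neutrophils) or the collagen genes Col1a1, Col1a2 and Col3a1 reached 0.5% of UMIs, when Ctsk and Acp5 (osteoclast genes) reached 5 UMIs, or when Cd79a or Siglech was present. This left 1972 of the 85339 barcodes that passed the depth, gene and mitochondrial limits. Below they are called dividing cells, which says only that they carried this RNA, since no division was observed. The 13949 cells that met every other part of the rule and had no UMI of Mki67 or Top2a are called non-dividing cells.

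Mice were 12 to 14 weeks old at surgery, in which the supraspinatus tendon was cut and repaired, and entheses were harvested at 7 days post injury (dpi). The 3 wild-type libraries came from C57BL/6 mice and the 3 Nlrp3-/- libraries from mice with a whole-body deletion of Nlrp3, a sensor of the inflammasome that releases interleukin-1β; all 6 had the same injury and repair. Entheses were pooled, the number of animals per library was not given, and no label says that the replicates came from separate animals, so p-values measure the spread between libraries, which may be technical. The genotype field of the labels names another gene of this family in 2 of the Nlrp3-/- libraries, and the title was followed for the group.

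The label was checked on Nlrp3 first. The dividing cells of the wild-type libraries held 544, 556 and 1445 UMIs of Nlrp3, and those of the Nlrp3-/- libraries held 0, 0 and 0, which is at least 714-fold lower than the wild-type mean of 146 CPM (UMIs of the gene scaled to the same total in each library) when 3 counts over the group (0.204 CPM) are taken as the limit. Xist, which is made from the inactive X chromosome, was at 842, 1038 and 814 CPM in the Nlrp3-/- dividing cells and at 0.153, 0 and 0.159 CPM in wild type. The Y-linked gene Ddx3y was at 35.8, 43.4 and 57.1 CPM in wild type and had 0 UMIs in each Nlrp3-/- library. Genotype and sex therefore cannot be told apart in any comparison below.

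Wild-type replicates 1, 2 and 3 gave 341, 303 and 327 dividing cells, and Nlrp3-/- replicates 1, 2 and 3 gave 203, 419 and 379. In that order the summed depth of the dividing cells was 6542260, 4444809, 6307383, 2428076, 6877626 and 5396574 UMIs, so Nlrp3-/- replicate 1 was the least precisely measured. Whole libraries held between 97042713 and 134901999 UMIs. Median depth per cell lay between 10402 and 16105 UMIs in dividing cells and between 4532 and 5935 UMIs in non-dividing cells. No barcode of a dividing cell was shared with the dividing cells of another library, while 758 of all barcodes occurred in more than 1 library. Sharing between dividing cells and other cells of another library was not counted. The most doublet-like barcodes by Scrublet score made up 3.45% to 22.4% of dividing cells and 2.26% to 9.50% of non-dividing cells per library, and they were kept except where stated. Just inside the rule, 40 to 63 cells per library had exactly 2 UMIs of Mki67 and Top2a, and just outside it 135 to 251 had 1 UMI. More dividing cells stood at the edge for Csf1r, Adgre1 and Cd68. Per library, 53 to 141 had exactly 2 UMIs of these genes together and 97 to 237 had 2 or 3. Just outside, 113 to 230 barcodes that met the rest of the rule had 1 UMI.

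As background, a cell that divides first copies its DNA, for which it needs the MCM helicase, the sliding clamp PCNA, DNA polymerases, deoxynucleotides and new histones. It then enters mitosis under cyclin B and CDK1, and leaves it when the anaphase-promoting complex, activated by CDC20, destroys the cyclins. Monocytes arise in the bone marrow from granulocyte-monocyte progenitors, which make the primary granule proteins elastase, proteinase 3, myeloperoxidase and cathepsin G. Monocytes that enter injured tissue carry Ly6C and CCR2, and mature into macrophages that switch on complement C1q, lysosomal enzymes and, in part, MHC class II. Macrophages can also divide in tissue under CSF1, acting through its receptor CSF1R.

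The genes of the rule were examined first, as a description. Csf1r RNA was found in 72.9% to 80.7% of the dividing cells per library, Adgre1 (F4/80) in 27.9% to 51.7% and Cd68 in 81.6% to 90.8%. Csf1r, a gene of the rule, was at 83.5, 102 and 91.0 CPM in the dividing cells of wild type and at 120, 110 and 129 CPM in those of Nlrp3-/-. The non-dividing cells had 257 to 318 CPM, above the dividing cells in each library, but dividing cells were deeper, so that the same minimum of UMIs admitted cells at a lower CPM and nothing is read from this difference. Beside Top2a and Mki67, whose ratio the rule fixed, the genes with the largest ratio of dividing to non-dividing cells were division genes (Hist1h1b, Hist1h2ap, Nusap1, Pclaf, Kif11, Ccna2 and Hist1h2ae), and among the leading 12 were also the granule genes Ctsg and Elane and the progenitor gene Ms4a3. The 12 with the lowest ratio were mostly genes of tissue macrophages and inflammation: Mmp12, Ccl8, Arg1, Clec4n, Apoe, Cxcl3, Pla2g7, Spp1, Rsad2, Abca1, Pdpn and Cd300c2. Part of the cells carried granule genes of progenitors, as counted further on, so the label of monocytes and macrophages was met only in part.

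Promoters of genes from the 3 groups that were high in the dividing cells are printed here, because later paragraphs give their RNA. Each is the 200 bases before the RefSeq transcript start (GRCm38.p6), read 5′ to 3′ on the strand of the gene. Capitals mark every match, on either strand, to 6 motifs: the cell cycle homology region TTTGAA, the CCAAT box, the E2F site (TTTCGCGC, TTTGGCGC or TTTCCCGC), the PU.1 core GAGGAA, the C/EBP site TTGCNNAA and the Myb site TAACNG. Cdk1 (chr10:69352913-69353112, minus strand) and Cdc20 (chr4:118437344-118437543, minus strand) are both mitotic; Cdk1 held TTTGAA and the CCAAT box 2 times each and 1 match each to the E2F site and the PU.1 core, and Cdc20 held 1 TTTGAA, 2 CCAAT boxes and 1 Myb site. Mcm6 (chr1:128359706-128359905, minus strand), a subunit of the replicative helicase, held 3 E2F sites, 2 of which overlap, 2 CCAAT boxes and 1 Myb site that overlaps a CCAAT box. The granule genes Elane (chr10:79886112-79886311, plus strand) and Prtn3 (chr10:79879467-79879666, plus strand) each held 1 PU.1 core, and Elane also 1 CCAAT box and 1 Myb site. Of promoters read but not printed, those of Mpo and Ctsg held no PU.1 core, that of Plk1 no TTTGAA and that of Ccnb2 1 TTTGAA.
Cdk1: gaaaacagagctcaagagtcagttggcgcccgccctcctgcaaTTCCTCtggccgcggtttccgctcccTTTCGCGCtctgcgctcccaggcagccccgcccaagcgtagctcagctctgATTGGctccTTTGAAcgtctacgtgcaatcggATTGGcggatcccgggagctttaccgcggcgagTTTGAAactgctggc
Cdc20: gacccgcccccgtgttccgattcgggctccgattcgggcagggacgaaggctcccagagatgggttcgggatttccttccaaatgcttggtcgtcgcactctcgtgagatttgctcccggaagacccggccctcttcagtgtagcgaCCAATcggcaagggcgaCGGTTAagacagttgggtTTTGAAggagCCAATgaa
Mcm6: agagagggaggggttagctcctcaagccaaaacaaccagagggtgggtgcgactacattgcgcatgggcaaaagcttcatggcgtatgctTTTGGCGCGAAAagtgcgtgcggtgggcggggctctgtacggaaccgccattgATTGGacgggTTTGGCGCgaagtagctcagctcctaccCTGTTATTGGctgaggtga
Elane: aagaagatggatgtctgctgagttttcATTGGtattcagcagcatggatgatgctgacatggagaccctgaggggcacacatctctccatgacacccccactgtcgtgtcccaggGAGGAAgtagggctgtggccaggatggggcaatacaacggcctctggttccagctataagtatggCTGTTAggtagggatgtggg
Prtn3: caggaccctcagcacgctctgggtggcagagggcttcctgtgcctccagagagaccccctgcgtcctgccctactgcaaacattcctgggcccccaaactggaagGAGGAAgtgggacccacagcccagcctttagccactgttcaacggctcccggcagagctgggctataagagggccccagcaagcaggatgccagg

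The same letters were counted in windows from 250 bases before to 50 bases after the start, on both strands. TTTGAA was present in 24 of 30 mitosis promoters (80%), in 4 of 27 replication promoters (14.8%) and in 18.1% of all 27025 promoters. The CCAAT box was present in 22 of the mitosis promoters (73.3%), 18 of the replication promoters (66.7%) and 37.9% of all. An E2F site was present in 13 of the replication promoters (48.1%), 1 of the mitosis promoters (3.33%) and 1.91% of all. The PU.1 core was present in 7 of 11 granule and progenitor promoters (63.6%), 11 of 14 promoters of C1q macrophage genes (78.6%) and 28.3% of all. The C/EBP site was present in 3 of the granule and progenitor promoters (27.3%) and 10.8% of all, and the Myb site in 3 (27.3%) and 23.2%. These are matches of letters, not sites shown to be bound.

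Genes of DNA replication were higher in the dividing cells of each library. Because the rule itself sets the dividing against the non-dividing cells, all differences between them are given as a description with no test, on the scale log2(CPM + 1) as the mean ± SD over 6 libraries. Of the 8195 genes that reached 10 CPM in either set, 40.8% were higher and 30.6% lower in 6 of 6 libraries, and the median ratio was 0.08. All 30 measured genes of the replication fork and its licensing were higher in 6 of 6, with a median log2 ratio of 2.74 (2.58 to 2.91 between libraries), as were all 12 genes of nucleotide supply (median 2.59). Mcm6 was at 117, 120 and 124 CPM in wild-type and 112, 157 and 135 CPM in Nlrp3-/- dividing cells, against 16.4 to 28.8 CPM in non-dividing cells (log2 ratio 2.51 ± 0.14). Rrm2, a subunit of the reductase that makes deoxynucleotides, was at 192, 149, 195, 152, 210 and 207 CPM in the same order, against 2.80 to 5.81 CPM (5.13 ± 0.32). Pcna had the smallest ratio among the replication genes (1.18 ± 0.23), since the non-dividing cells held 135 to 166 CPM of it.

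Mitotic genes differed more. All 35 measured genes of the mitosis list were higher in 6 of 6 libraries, with a median log2 ratio of 4.64 (4.38 to 4.71 between libraries). Cdk1, the mitotic kinase, was at 147, 143 and 218 CPM in wild-type and 192, 236 and 240 CPM in Nlrp3-/- dividing cells, against 4.1 to 9.48 CPM in non-dividing cells. Cdc20, an activator of the anaphase-promoting complex, was at 83.6, 65.9, 81.8, 80.3, 105 and 86.7 CPM, against 2.87 to 5.81 CPM. Ube2c, the ubiquitin-conjugating enzyme of that complex, varied little between libraries, from 484 to 520 CPM. No value of these genes in the dividing cells of any library reached down to the range of the non-dividing cells.

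Of 11 measured replication-dependent histone genes, 9 were higher in 6 of 6 libraries (list median 4.05). Hist1h1b, a linker histone, was at 220 to 411 CPM against 1.78 to 3.49 CPM. Hist1h2bc was lower in 6 of 6 (−0.74 ± 0.35) and Hist1h1c was mixed. All 12 chromatin and tubulin genes of cycling cells were higher, among them Stmn1, a regulator of microtubules, with 1316 to 1514 CPM against 74.3 to 100 CPM.

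Regulators of entry into the cycle were more varied. Of 14 measured G1 cyclins, kinases and E2F and Myc factors, 13 were higher in 6 of 6 libraries (list median 1.47), led by E2f8 (3.62 ± 0.19), an E2F family repressor that is itself made in S phase. Ccnd1 (cyclin D1) was the exception, at 33.5, 63.4, 69.8, 61.8, 37.9 and 86.4 CPM against 36.7 to 82.6 CPM (0.01 ± 0.71). Of 14 measured cell cycle inhibitors, 4 were higher and 4 lower in 6 of 6 (list median −0.10). Against non-dividing cells matched on UMIs, as described below, the list median turned to 0.30 (0.091 to 0.497 between libraries). The INK4 inhibitors Cdkn2c (2.60 ± 0.17) and Cdkn2d (1.72 ± 0.36) and the retinoblastoma relative Rbl1 (2.08 ± 0.24) were higher, and the antiproliferative genes Btg1 (−1.47 ± 0.32) and Tob1 (−1.06 ± 0.21) were lower. Cdkn1a (p21) was at 478, 516, 557, 556, 339 and 480 CPM, against 394 to 652 CPM, and the sets overlapped. Of 8 measured p53 targets, 1 was higher and 4 were lower.

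Granule genes of progenitors were also higher in the dividing cells of each library. Elane, neutrophil elastase, was at 1853, 1527 and 1592 CPM in wild-type and 858, 2300 and 1514 CPM in Nlrp3-/- dividing cells, against 11.8 to 99.1 CPM in non-dividing cells (5.61 ± 0.97). Mpo, myeloperoxidase, was at 962, 760, 870, 508, 1544 and 879 CPM, against 10.3 to 64.1 CPM (5.29 ± 0.57). Prtn3, proteinase 3, was at 2913, 2178, 2593, 1805, 3456 and 2119 CPM, against 45.5 to 144 CPM (5.16 ± 0.37). Nlrp3-/- replicate 1 was lowest and Nlrp3-/- replicate 2 highest for all 3 genes. Ms4a3, a membrane protein of granulocyte-monocyte progenitors, was at 176 to 357 CPM against 1.83 to 13.9 CPM, and Myb, a transcription factor of progenitors, at 33.1 to 99.5 CPM against 0.809 to 5.33 CPM. All 11 measured genes of this list were higher in 6 of 6 libraries (median 3.99, from 3.72 to 4.32 between libraries and below the mitosis list in each), including Kit, the stem cell factor receptor (1.32 ± 0.20), and Cebpe, a granulocyte transcription factor (1.82 ± 0.48).

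Free RNA in the suspension also held these genes. In barcodes with at most 100 UMIs, pooled per library, Elane was at 400 to 615 CPM in wild type and 288 to 908 CPM in Nlrp3-/-, and in T cells, which do not make it, at 9.07 to 551 CPM. The dividing cells were above both in each library. When non-dividing cells were drawn to match the UMI counts of the dividing cells as far as the cells allowed (medians of 8836 to 10610 UMIs), the Elane log2 ratio was 4.92 ± 1.45 and the median of the list was 3.35, while Cd34 was at −0.12 and Sox4 at −0.07. The granulocyte side of the rule removed few cells: 26 to 68 barcodes per library failed only on Ngp, Camp and Ltf.

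**Figure D1:**
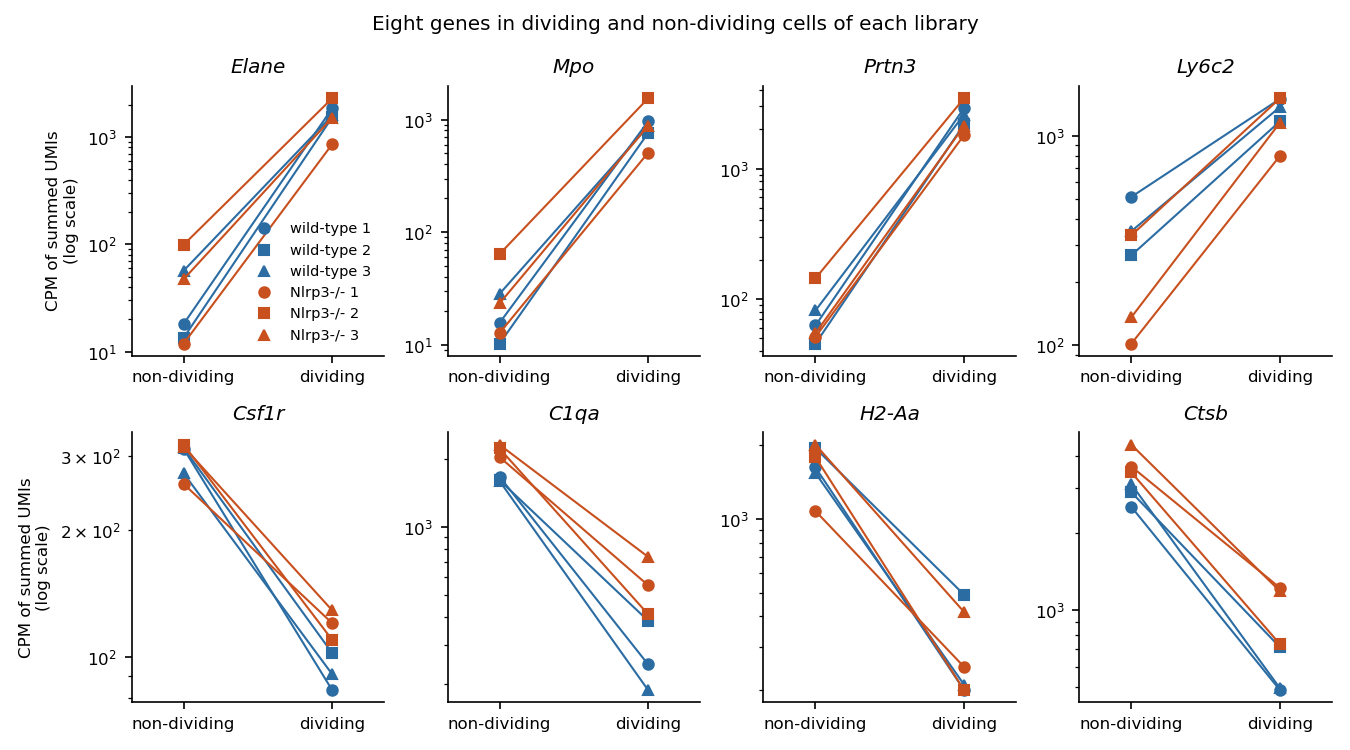
CPM of 8 genes (log scale) in the non-dividing and dividing cells of each library, with a line joining the 2 values of a library; blue is wild type and orange Nlrp3-/-. Elane, Mpo, Prtn3 and Ly6c2 rise along each line, and Csf1r, C1qa, H2-Aa and Ctsb fall along each line. Csf1r is a gene of the rule, so nothing is read from its fall.

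Monocyte genes were divided. Ly6c2, which encodes Ly6C, was at 1503, 1175 and 1375 CPM in wild-type and 804, 1513 and 1158 CPM in Nlrp3-/- dividing cells, against 102 to 511 CPM in non-dividing cells (2.31 ± 0.60). Plac8 (1.24 ± 0.50), Hp (haptoglobin, 1.33 ± 0.27), F13a1 (0.63 ± 0.15) and Chil3 (0.94 ± 0.41) were also higher in 6 of 6 libraries. In Nlrp3-/- replicates 2 and 3, however, the Chil3 level of the dividing cells was below that of T cells, as given further on. Fn1, fibronectin, was lower (430 to 715 CPM against 951 to 1595 CPM, −1.11 ± 0.19), as were S100a4 and Cd177, and the chemokine receptor Ccr2 was mixed (220 to 341 CPM against 253 to 502 CPM). In all, 6 of the 12 genes were higher and 3 lower, with a list median of 0.22, which was 0.86 (0.552 to 1.31 between libraries) against non-dividing cells matched on UMIs.

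Of 16 measured receptors and lineage factors, 3 were higher in 6 of 6 libraries, namely Irf8, a factor of monocyte and dendritic cell commitment (0.82 ± 0.35), Kit and the interleukin-3 receptor chain Il3ra (0.35 ± 0.19), and 9 were lower (list median −0.54, or −0.07 against cells matched on UMIs). Maf, a transcription factor of differentiated macrophages that is known to restrain self-renewal, was at 20.9 to 61.0 CPM against 141 to 315 CPM (−2.51 ± 0.24). The receptor chains for GM-CSF, Csf2ra and Csf2rb, were mixed. Csf1r is counted among the 9 (−1.49 ± 0.28, or −1.08 against cells matched on UMIs as far as the cells allowed). It is a gene of the rule, so nothing is read from its difference.

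Genes of mature macrophages were lower throughout. All 13 measured genes of the C1q macrophage list (median log2 ratio −2.38), all 11 of the Arg1 and Spp1 list (−1.90), all 7 of MHC class II (−2.51) and all 15 of lysosome and phagocytosis (−1.78) were lower in 6 of 6 libraries. Against non-dividing cells matched on UMIs the medians were −2.56, −2.20, −1.77 and −1.75 in that order, so MHC class II was no longer the lowest. C1qa, a chain of complement C1q, was at 245, 383 and 189 CPM in wild-type and 551, 410 and 737 CPM in Nlrp3-/- dividing cells, against 1600 to 2318 CPM in non-dividing cells (−2.32 ± 0.54). H2-Aa, an MHC class II chain, was at 200, 490, 210, 248, 199 and 416 CPM, against 1076 to 2008 CPM (−2.57 ± 0.50). Ctsb, cathepsin B, was at 485, 714, 493, 1220, 734 and 1184 CPM, against 2532 to 4435 CPM (−2.13 ± 0.38). The sets did not overlap for any of these 3 genes. The C1q cells are counted below, and the levels here average over cells with and without the genes.

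Of 12 measured inflammasome and interleukin-1 genes, 7 were lower in 6 of 6 libraries and 1, the adaptor Pycard (0.52 ± 0.14), was higher. Il1b, interleukin-1β, was at 263, 423, 834, 778, 358 and 578 CPM against 646 to 1897 CPM, lower in 6 of 6 (−1.07 ± 0.20), but the ratio shrank to −0.16 against cells matched on UMIs. Il1rn, the interleukin-1 receptor antagonist, was lower (−2.26 ± 0.38). Nlrp3 itself was at 83.2, 125 and 229 CPM in the wild-type dividing cells, and at 128, 179 and 273 CPM in the non-dividing cells of the same libraries. The genes the study named for proinflammatory macrophages, as markers or as genes that differed between genotypes, were mixed. With Nlrp3 left out of them, Il6 (2.06 ± 0.29) and Ly6c2 were higher and 5 of 8 lower (list median −1.18, or −0.30 against cells matched on UMIs). Those it named in the same ways for anti-inflammatory macrophages were lower for 9 of 9; both lists were chosen by the study on these samples and are not independent evidence.

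**Figure D2:**
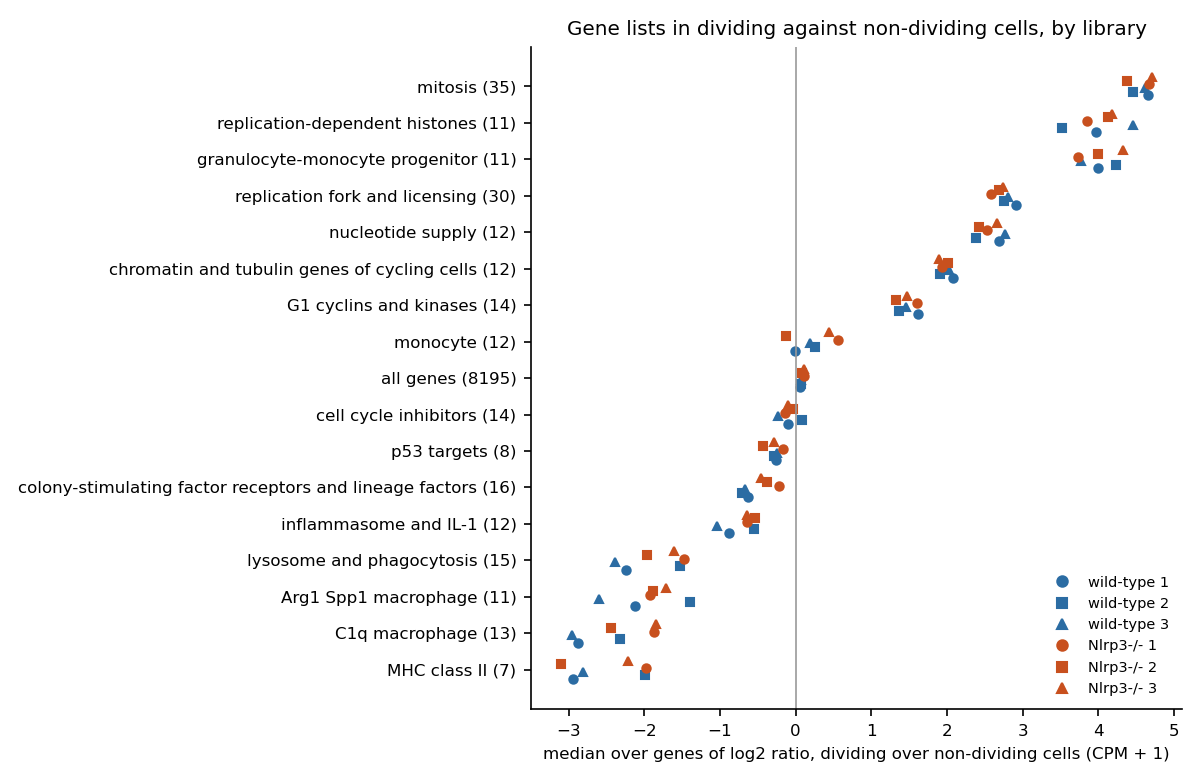
Median log2 ratio of dividing over non-dividing cells for each gene list (number of genes measured in brackets), with 1 point per library; blue is wild type and orange Nlrp3-/-. The mitosis list lies highest, from 4.38 to 4.71, and the MHC class II and C1q lists have the lowest medians over libraries (−2.51 and −2.38), though other macrophage lists lie lower in some libraries.

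Within the dividing cells, granule and C1q genes marked nearly separate sets of cells. Each cell was thinned at random to 1000 UMIs, and a gene set was called present at 2 or more UMIs. By this count 743 cells (37.7%) had the granule genes Mpo, Elane, Prtn3 and Ctsg, 320 (16.2%) had C1qa, C1qb and C1qc, 21 (1.06%) had both and 888 (45.0%) had neither. These shares depend on the thinning. Without it, 49.8% to 76.5% of the dividing cells per library had 2 or more UMIs of the granule genes, and 12.2% to 43.8% of the C1q genes. The granule set ranged from 18.7% (Wilson 95% confidence interval 14 to 24.6) in Nlrp3-/- replicate 1 to 48.2% (43.5 to 53) in Nlrp3-/- replicate 2, and the C1q set from 8.21% to 25.3% over libraries. In T cells of the same libraries, at median depths of 2518 to 3489 UMIs before thinning, 0% to 3.14% had the granule genes and 0% to 3.48% the C1q genes, so both sets were above this background in each library. Of mesenchymal cells in Nlrp3-/- replicate 1, 9.01% had the granule genes and 13.6% the C1q genes, against 21.2% and 25.1% of its dividing cells. In the other libraries at most 0.938% and 0.209% of mesenchymal cells had them. The sets are ranges cut at a threshold and not types, and Prtn3 still stood at 301 to 491 CPM in the cells with neither set.

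Other genes are described across these sets with no test, and the first 2 are genes of the rule, whose fixed minimum of UMIs admits lower CPM in deeper cells. Adgre1 was at 10.5 to 41.8 CPM in cells with the granule genes, at 170 to 453 CPM in cells with C1q genes and at 22.6 to 62.5 CPM in cells with neither. Csf1r followed the same order, at 66.0 to 83.9, 199 to 251 and 84.9 to 129 CPM. Ly6c2 ran the other way, at 1269 to 1924, 7.25 to 520 and 774 to 1229 CPM. The cells with neither set had the highest Fn1 in each library, from 696 to 1621 CPM, against 213 to 288 CPM in the granule set and 263 to 959 CPM in the C1q set, and also the highest Ccr2 and Vcan. Plac8, another monocyte gene, was higher in the granule set (3201 to 3814 CPM) than in the cells with neither (1058 to 1869 CPM).

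The cyclins differed between the sets as well. Ccnd1 was at 5.39 to 15.2 CPM in the granule set, 105 to 326 CPM in the C1q set and 41.8 to 140 CPM in cells with neither, with no overlap between the first set and the others. Cdk6, a partner of the D cyclins, was highest in the granule set in each library (86.5 to 196 CPM). Ccnd2 was at 27.6 to 58.8 CPM in the granule set, 2.27 to 21.7 CPM in the C1q set (1 to 13 UMIs per library) and 5 to 31.3 CPM in cells with neither, which were above the granule set in wild-type replicates 1 and 2. Replication genes outnumbered mitosis genes, in UMIs, in 51.0% to 57.4% of the granule set, 38.1% to 50% of the C1q set and 28.8% to 37.7% of the cells with neither. The sets differed in depth, with median UMIs of 17597 to 23674, 7415 to 13504 and 9687 to 13235 per cell in that order, and in the share of the most doublet-like barcodes, which was 4.35% to 35.7% in the C1q set and 0% to 14.9% in the granule set; their part in these values was not tested.

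The share of dividing cells differed in the same way when all monocytes and macrophages of the rule were taken, each thinned to 1000 UMIs and called dividing at 1 UMI of Mki67 or Top2a. Among cells with the granule genes, 32.5%, 35.1% and 40.2% were dividing in wild type and 22.5%, 52.8% and 38.0% in Nlrp3-/-, against 3.88% to 9.58% of the cells without them. The mean over 6 libraries was 36.9% ± 9.96 (SD) with and 5.65% ± 2.08 without, higher in 6 of 6. Among cells with 2 or more UMIs of Ly6c2 and Ccr2 together, 15.9% ± 4.6 were dividing, against 5.58% ± 2.73 of those without, also higher in 6 of 6. Cells with the other sets were dividing less often in 6 of 6 libraries: 3.56% ± 1.65 with and 10.5% ± 4.8 without C1q genes, 3.02% ± 1.11 and 9.38% ± 4.48 for MHC class II, and 2.51% ± 1.28 and 10.1% ± 4.4 for Arg1 and Spp1.

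Cells with Mki67 or Top2a were counted in each set. Among cells with C1q genes, between 1.74% and 6.41% per library carried Mki67 or Top2a after thinning. For scale, the same count gave 5.98% to 16.0% in T cells, 4.35% to 11.1% in mesenchymal cells and 1.38% to 4.12% in mature neutrophils, which no longer divide. The C1q, MHC class II and Arg1 and Spp1 sets lay within the range of the neutrophils in each library but Nlrp3-/- replicate 2. There they were at 6.41%, 4.32% and 4.84%. Elsewhere this count does not separate dividing cells in these 3 sets from that background. No test is given for these shares, because the rule sets dividing against non-dividing cells. The minimum of Csf1r, Adgre1 and Cd68 UMIs was also applied before thinning. Dividing cells with granule genes held less Csf1r and Adgre1 than those with C1q genes and were deeper, as given above. Shallow cells with granule genes may therefore have been missed, and the part of this in the shares by gene set was not tested.

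**Figure D3:**
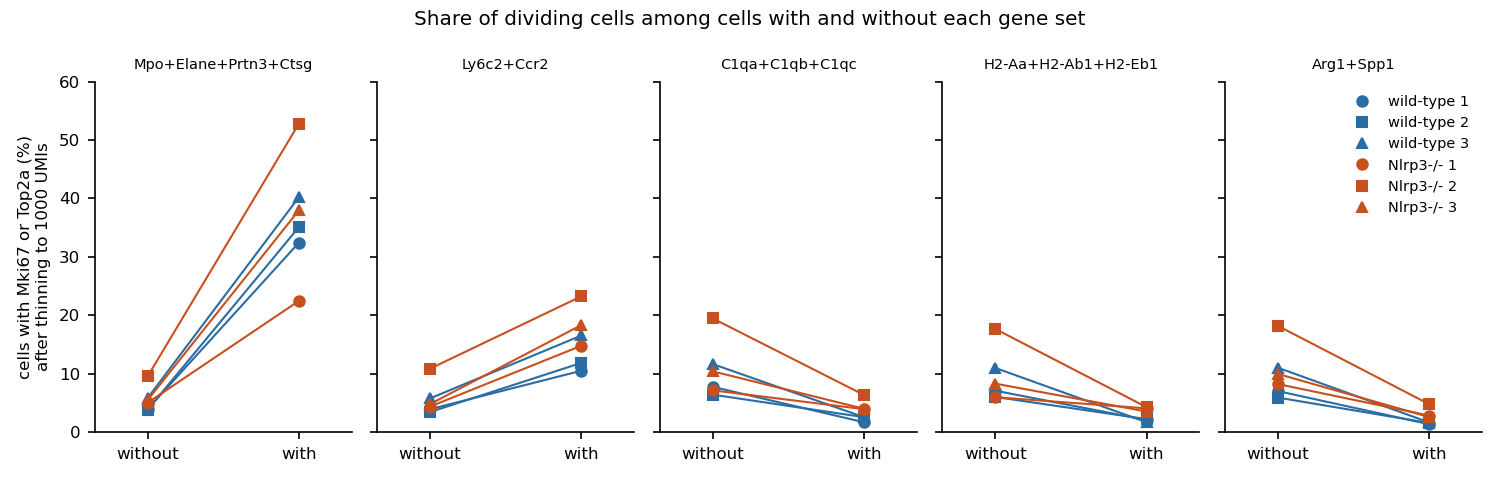
Percentage of monocytes and macrophages with Mki67 or Top2a after thinning to 1000 UMIs, among cells without and with each gene set, with a line for each library; blue is wild type and orange Nlrp3-/-. The lines rise for the granule genes and for Ly6c2 and Ccr2, and fall for the other 3 sets, in 6 of 6 libraries.

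The first comparison of genotypes asked whether dividing cells made up a different share of the monocytes and macrophages without Nlrp3. After thinning they were 5.76%, 4.86% and 8.84% in wild type and 5.62%, 14.7% and 6.99% in Nlrp3-/-, with means of 6.49% ± 2.09 and 9.10% ± 4.89 (SD, n = 3 each). The groups overlapped, the difference of 2.61 percentage points was within the spread between libraries (exact two-sided permutation test, p = 0.6), and without Nlrp3-/- replicate 2 it was −0.18. By the rule itself, without thinning, the shares were 11.1%, 7.26%, 16.7%, 8.03%, 21.4% and 11.3% (p = 0.6 by the same exact test). With 3 libraries against 3, the smallest p this test can give is 0.1.

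When cells with 2 or more UMIs of the granule genes before thinning were left out, the shares were 2.24%, 2.81% and 3.12% in wild type and 3.79%, 6.49% and 4.29% in Nlrp3-/-. These groups did not overlap (means 2.72% ± 0.45 and 4.85% ± 1.44, exact permutation p = 0.1, the smallest possible). Mature neutrophils, a background for this count, stood apart in the same direction, at 1.79%, 1.38% and 2.24% in wild type and 2.94%, 3.65% and 4.12% in Nlrp3-/-. All 3 wild-type values and that of Nlrp3-/- replicate 1 lay within the range of the neutrophils, and the part of this background in the difference was not tested. The cut before thinning removed more cells than the granule set counted after thinning. Of the dividing cells of the rule it left 82, 120 and 77 in wild type and 102, 99 and 160 in Nlrp3-/-. The same cut applies below wherever cells with granule genes were left out or taken alone.

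The makeup of the dividing cells was then compared, over 6 shares with p-values adjusted by the Benjamini-Hochberg method, and none passed. Cells with Ly6c2 and Ccr2 were 53.7%, 42.6% and 54.7% of the dividing cells in wild type and 32.5%, 48.7% and 40.1% in Nlrp3-/- (means 50.3% ± 6.7 and 40.4% ± 8.1, exact permutation p = 0.2, adjusted 0.4). This count sums both genes and does not require each. It was also reached by 11.5% to 23.9% of T cells, below the dividing cells in each library. Cells with C1q genes were 9.68%, 19.1% and 9.79% against 25.1%, 15.5% and 26.9% (means 12.9% ± 5.4 and 22.5% ± 6.1, exact permutation p = 0.2, adjusted 0.4). The groups overlapped for both, each time through wild-type replicate 2 and Nlrp3-/- replicate 2.

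Cells with Arg1 and Spp1 were 5.57%, 6.93% and 6.12% in wild type and 18.2%, 7.40% and 14.8% in Nlrp3-/-, with no overlap (exact permutation p = 0.1, adjusted 0.4). This count sums both genes and does not require each. Among dividing cells with C1q genes Spp1 was at 625 to 6513 CPM and Arg1 at 26.3 to 112 CPM. The count therefore mostly follows Spp1 and is not separate from the result for that gene below. The same count was reached by 1.80%, 1.38% and 3.64% of T cells in wild type and 6.27%, 4.38% and 1.28% in Nlrp3-/-, below the dividing cells in each library, but also by 4.21% to 23.1% of mature neutrophils. It was reached by 13.9% to 32.1% of mesenchymal cells, the highest in Nlrp3-/- replicate 1, where their median depth was 1806 UMIs. The granule genes (39.9% ± 7.1 and 34.5% ± 13.8, p = 0.7), MHC class II (8.56% ± 3.18 and 8.83% ± 3.2, p = 0.9) and the share with more replication than mitosis UMIs (42.7% ± 0.66 and 43.1% ± 1.97, p = 0.8) overlapped as well, by the same exact permutation test. Nlrp3-/- replicates 1 and 2 stood at opposite ends for the granule genes, at 21.2% and 48.7%.

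**Figure D4:**
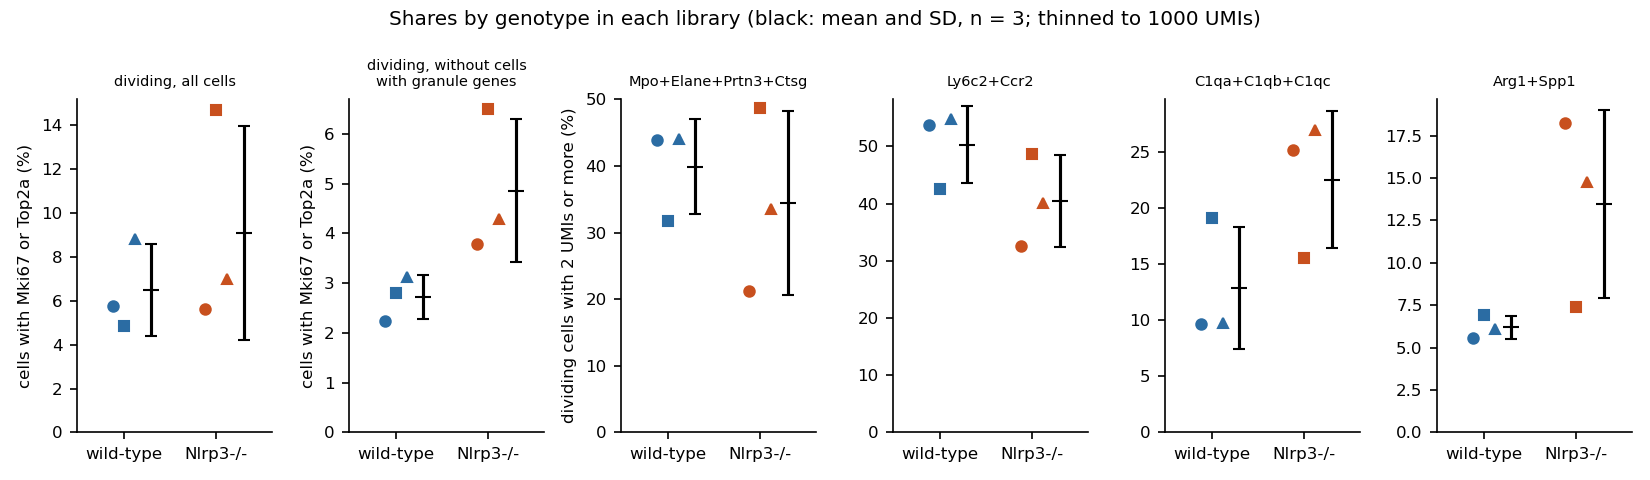
Shares in percent of cells for each library of both genotypes: dividing cells among monocytes and macrophages, with all cells and without cells with granule genes, and 4 gene sets among the dividing cells, all after thinning to 1000 UMIs; black marks show the mean and SD over 3 libraries. The groups overlap in each panel except the second, where 2.24% to 3.12% stands against 3.79% to 6.49%, and the last, where 5.57% to 6.93% stands against 7.40% to 18.2%. The cells left out in the second panel were chosen by their UMIs before thinning.

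The second comparison asked which genes differed between the genotypes in the dividing cells. UMI counts were summed over the dividing cells of each library for the quasi-likelihood test of edgeR, and log2 fold changes are of Nlrp3-/- over wild type with their standard errors (SE). At a Benjamini-Hochberg adjusted p of 0.05, 41 of 11269 genes passed (0.364%), 14 higher (0.124%) and 27 lower (0.24%) in Nlrp3-/-, and the median log2 fold change of all genes was 0.02. The number depended on the libraries and the method, with 567 without wild-type replicate 3, 17 without Nlrp3-/- replicate 3, 308 by DESeq2 and 405 with no filter on low counts. Of the 41, 5 lay on the X chromosome, all higher, and 4 on the Y chromosome, all lower. Another 8 lay within 20 Mb of Nlrp3 on chromosome 11 (GRCm38, 59541568 to 59566956), Nlrp3 included; that is 8 of 344 genes tested there (2.33%), against 24 of 10571 elsewhere (0.227%). The genes of the sex chromosomes and of that stretch cannot be told apart from sex and from DNA carried along with the deleted locus.

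Spp1, osteopontin, was at 322, 319 and 365 CPM in wild-type and 1647, 819 and 1291 CPM in Nlrp3-/- dividing cells. The groups did not overlap, as was the case in these unscaled CPM for 21% of all genes in this direction and 4.46% in the other, and Nlrp3-/- over wild type was 1.75 ± 0.25 on the log2 scale (SE; adjusted p = 0.0214 by edgeR). Its level in free RNA was higher in the same direction, at 1094 to 2058 CPM in wild type and 2554 to 3376 CPM in Nlrp3-/-, and its part in the difference was not tested. T cells held 135, 73.1 and 914 CPM in wild type and 365, 273 and 204 CPM in Nlrp3-/-. In wild-type replicate 3 the dividing cells together were below this background, so their summed value alone cannot be read as expression. The dividing cells with C1q genes in that library, given below, were above it. The call was lost without wild-type replicate 1 (1.75, edgeR adjusted p = 0.106), wild-type replicate 2 (1.71, 0.085) or Nlrp3-/- replicate 3 (1.74, 0.128), without the most doublet-like barcodes (1.94, 0.101) without cells with granule genes (1.52, 0.151), among cells with granule genes alone (1.04, 0.199) and with the replicate block (1.68, 0.081). Without Nlrp3-/- replicate 1 it was kept (1.46, 0.0421). Among dividing cells with C1q genes Spp1 was at 1263, 625 and 2993 CPM against 6513, 4809 and 4216 CPM, and among those with granule genes at 125, 155 and 127 CPM against 511, 143 and 376 CPM.

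Adgre1, which encodes F4/80, was at 30.6, 40.9 and 36.1 CPM in wild type and 104, 69.8 and 91.5 CPM in Nlrp3-/-. It was 1 of the genes that chose the cells, so these levels are a description with no test, although it is counted among the 41. Folr2, folate receptor beta of tissue-resident macrophages, was at 5.35, 9 and 6.98 CPM against 35, 18.2 and 30.2 CPM (1.80 ± 0.30, edgeR adjusted p = 0.0492). Folr2 did not overlap between the groups, as was the case in these unscaled CPM for 21% of all genes in this direction, and it sat just inside the threshold. In free RNA Folr2 was at 11.2 to 14.9 CPM in wild type and 20.2 to 40.0 CPM in Nlrp3-/-, and its part in the difference was not tested. T cells held no Folr2 UMI in wild type and 1.89, 0.847 and 0 CPM in Nlrp3-/-, below the dividing cells in each library.

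The other named genes that were higher were Cenpv, a centromere and microtubule protein (12.4 to 14.4 CPM against 30.0 to 37.5 CPM, 1.22 ± 0.15, edgeR adjusted p = 0.0102), which lies 2.98 Mb from Nlrp3, Gcsh, the H protein of glycine cleavage (1.00 ± 0.15, edgeR adjusted p = 0.0278), and AC149090.1, a gene on an unplaced scaffold (1.32 ± 0.18, edgeR adjusted p = 0.0214). All 3 calls were lost without wild-type replicate 1 or Nlrp3-/- replicate 3 or without cells with granule genes (edgeR adjusted p from 0.052 to 0.627). With 1 library left out the log2 fold changes stayed at 1.13 to 1.28 for Cenpv, 0.917 to 1.10 for Gcsh and 1.19 to 1.45 for AC149090.1. The lowest under any alternative were 0.723, 0.903 and 0.994 in that order. Gcsh and AC149090.1 also passed in the non-dividing cells.

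Chil3, a chitinase-like protein of monocytes and alveolar macrophages also called Ym1, was at 391, 281 and 348 CPM in wild-type and 51.1, 50.3 and 20.4 CPM in Nlrp3-/- dividing cells. The groups lay far apart, at −3.25 ± 0.33 on the log2 scale (SE; adjusted p = 0.00355 by edgeR), and in non-dividing cells the change was −3.23 ± 0.47 (edgeR adjusted p = 0.0288). Chil3 was at 317 to 471 CPM against 20.8 to 56.6 CPM among cells with the granule genes and at 225 to 465 CPM against 30.6 to 89.7 CPM among those with neither set. In the C1q set, where it was counted in 0 to 23 UMIs per library, the groups overlapped, at 26.3, 41.7 and 9.67 CPM against 0, 12.3 and 1.84 CPM. Free RNA differed in the same direction, at 310 to 832 CPM in wild type and 80.2 to 168 CPM in Nlrp3-/-. T cells held 340, 238 and 64.8 CPM in wild type and 27.4, 85.6 and 32.7 CPM in Nlrp3-/-. The dividing cells of Nlrp3-/- replicates 2 and 3 were below this background, so their summed level alone cannot be read as expression. The dividing cells of wild-type replicates 1 and 2 were little above it. In each library the C1q set was below the T cells, so not every set of dividing cells held this much. The part of free RNA in the difference was not tested.

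Ifitm1, an interferon-induced membrane protein also found on progenitors, was at 288, 394 and 515 CPM in wild type and 142, 88.7 and 171 CPM in Nlrp3-/- (−1.73 ± 0.26, edgeR adjusted p = 0.0318). Free RNA differed in the same direction, at 283, 374 and 200 CPM in wild type and 188, 77.2 and 126 CPM in Nlrp3-/-. Its part in the difference was not tested. T cells held 78.1 to 88.1 CPM of Ifitm1 in wild type and 10.3 to 26.5 CPM in Nlrp3-/-, below the dividing cells in each library. Lcn2, lipocalin 2 of neutrophil granules, was at 296, 234 and 461 CPM against 122, 147 and 168 CPM (−1.34 ± 0.22, edgeR adjusted p = 0.0498). The level of Lcn2 in T cells (487 to 1587 CPM) was above that in the dividing cells of either genotype, so the summed level alone cannot be read as expression. Within the dividing cells Lcn2 was at 178 to 548 CPM in the granule set and at 19.3 to 97.8 CPM in the C1q set. The remaining named genes were Itgb3bp, a kinetochore protein (−1.38 ± 0.19, edgeR adjusted p = 0.0212), Ss18l2 (−0.85 ± 0.13, edgeR adjusted p = 0.0350) and Tpm3-rs7 (−5.87 ± 0.37), a near copy of Tpm3 with which it can share reads. Ifitm1, Lcn2, Itgb3bp and Ss18l2 were lost without Nlrp3-/- replicate 1 or replicate 3 (edgeR adjusted p from 0.092 to 0.255), and Tpm3-rs7 was kept. Ss18l2 and Tpm3-rs7 also passed in the non-dividing cells.

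Neutrophil RNA was measured beside these results. The 10 neutrophil markers made up 0.658% to 0.916% of UMIs in wild-type and 0.0978% to 0.325% in Nlrp3-/- dividing cells, and 8 of them had groups that did not overlap, all lower in Nlrp3-/-, where 10.4% of all genes were so after scaling and 4.46% in unscaled CPM. Lcn2 was the 1 marker that passed the test. S100a8 was at 3515, 3410 and 3517 CPM in wild type and 442, 1196 and 1520 CPM in Nlrp3-/- (−1.91, edgeR adjusted p = 0.0767), which did not pass, and T cells held more of it, from 4697 to 15904 CPM. Free RNA held 3.08% to 6.93% and 2.20% to 3.43% of this list in the 2 genotypes. The part of these reads in the genes named above was not tested.

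**Figure D5:**
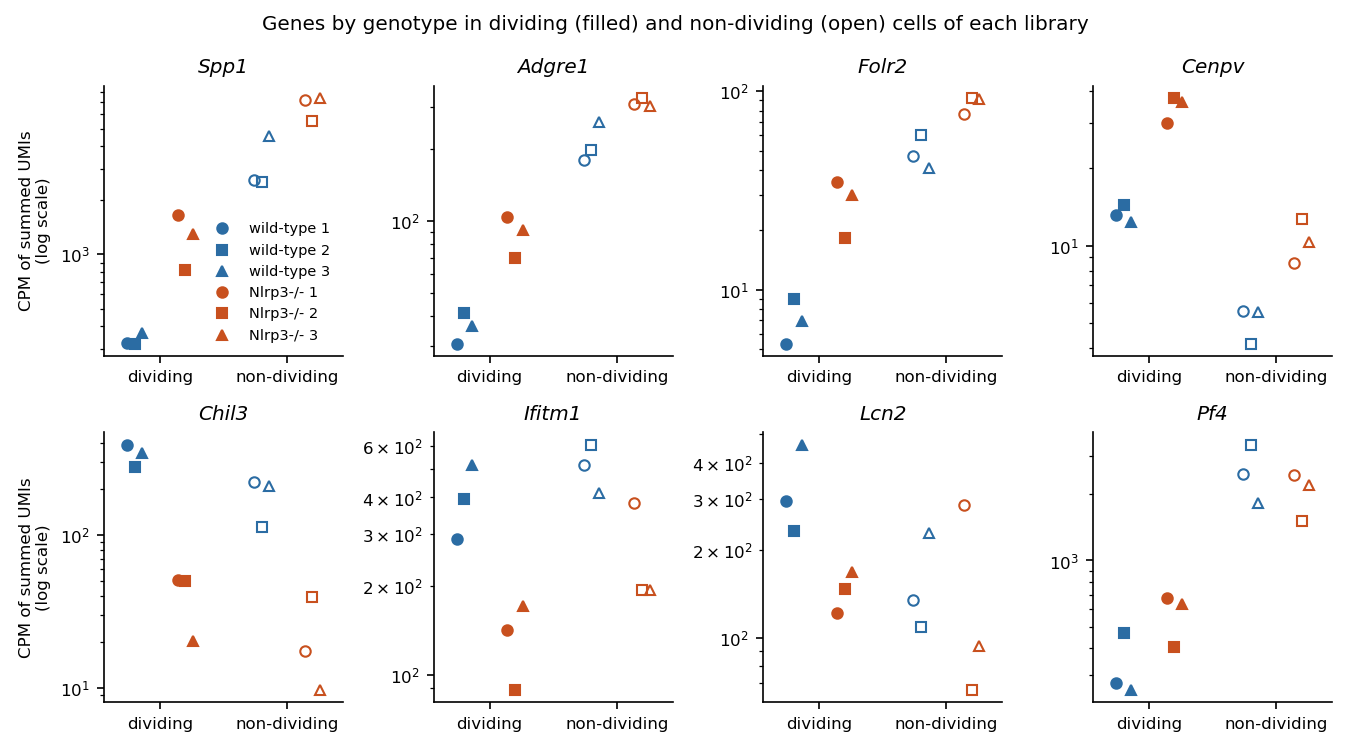
CPM (log scale) of 8 genes in the dividing cells (filled) and non-dividing cells (open) of each library; blue is wild type and orange Nlrp3-/-, and symbols give the replicate. In the dividing cells the groups are apart for Spp1, Adgre1, Folr2, Cenpv, Chil3, Ifitm1 and Lcn2, while Pf4 overlaps. Adgre1 is a gene of the rule, so nothing is read from its separation.

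Of the cell cycle lists, no gene passed the test between genotypes. In the mitosis list 12 of 36 genes had higher values in each Nlrp3-/- library than in any wild-type one, and 1 had lower values, where 10.8% and 10.4% of all genes did so after scaling of the libraries. The list median was 0.18. Cdk1 was at 0.23 ± 0.16 (adjusted p = 0.482 by edgeR). The replication list had a median of 0.02, with 1 gene higher and 4 lower without overlap, and the granule and progenitor list had a median of −0.17. Elane was at −0.28 and Mpo at −0.01.

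Medians of the macrophage lists differed in sign. The C1q macrophage list had a median log2 fold change of 0.86, against 0.39 in non-dividing cells, with Folr2 as the 1 gene that passed and 6 of its 15 genes higher without overlap (Folr2, C1qc, Mrc1, Apoe, Trem2 and Cbr2), where 10.8% of all genes were so after scaling and 21% in unscaled CPM. The median was 0.59 for lysosome and phagocytosis, 0.62 for the Arg1 and Spp1 list and −0.46 for MHC class II. Apart from Spp1, Folr2, Chil3 and Nlrp3, no gene of the lists of this paragraph, of monocytes, of receptors and lineage factors or of the inflammasome passed. The larger share of cells with C1q genes in 2 of the Nlrp3-/- libraries stands beside these values, and its part was not tested. Free RNA held C1qa at 421, 414 and 319 CPM in wild type and 731, 317 and 674 CPM in Nlrp3-/-. That was above the dividing cells of each wild-type library and of Nlrp3-/- replicate 1, and below those of replicates 2 and 3. T cells held 7.49 to 40.6 CPM. The part of free RNA was not tested either.

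In the non-dividing cells 67 of 12368 genes passed (0.542%), and 28 genes passed in both sets of cells, which is 68.3% of the 41 and 41.8% of the 67. The test of the difference itself, an interaction of genotype with division with the library as a block, found 1 of 12323 genes (0.00811%). That gene was Pf4, platelet factor 4, a chemokine also made by tissue macrophages. It was at 277, 466 and 257 CPM in wild-type and 678, 404 and 634 CPM in Nlrp3-/- dividing cells, and at 2478, 3359 and 1833 CPM and 2454, 1509 and 2206 CPM in non-dividing cells. Neither set of cells differed on its own (0.62 ± 0.27, edgeR adjusted p = 0.314, and −0.46 ± 0.28, edgeR adjusted p = 0.374), while the interaction was 1.09 ± 0.10 (edgeR adjusted p = 0.0069). This call was lost without Nlrp3-/- replicate 1 or without Nlrp3-/- replicate 3.

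Within the dividing cells Pf4 was highest in those with C1q genes. There it was at 1734, 2645 and 2662 CPM in wild type and 2766, 1649 and 2309 CPM in Nlrp3-/-, where the groups overlapped, and among cells with granule genes at 20.7, 42.2 and 2.19 CPM against 103, 52.1 and 169 CPM. T cells held 6.42, 25.8 and 11.7 CPM of Pf4 in wild type and 82.2, 12.7 and 28.4 CPM in Nlrp3-/-, and free RNA 496 to 912 CPM and 457 to 1910 CPM. The part of this background in the levels was not tested. Without cells with granule genes the interaction was 0.46 (edgeR adjusted p = 0.804).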

How the data were processed

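Single cells of the injured entheses were prepared with 10x Chromium chemistry and sequenced, and the authors deposited 1 matrix of UMI counts per library, raw and not normalized, with every barcode. Per the submitters' processing notes, reads were assigned with Cell Ranger 2.1.1 to mm10, while the file headers name a later release; the study's own cell filters and clusters were not used here. The members and the gene lists were chosen with earlier results of these data known.

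Cells were taken by the rule given at the start of the report. Doublets were scored with Scrublet (scanpy 1.11.5), whose automatic threshold marked 33 of 22048 barcodes in 1 library and so did not work there; instead the highest scores were marked, 0.8% for each 1000 barcodes. For shares, each cell was thinned to 1000 UMIs. Where cells with granule genes were left out, the cut was 2 or more UMIs before thinning. T cells (2 or more UMIs of T cell genes), mesenchymal cells and mature neutrophils, all without UMIs of Csf1r, Adgre1 and Cd68, gave the background. Intervals and limits at a count of 0 (3 counts) cover counting error only.

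Counts summed per library were tested with edgeR 4.0.16 (R 4.3.3; TMM, filterByExpr, quasi-likelihood test, Benjamini-Hochberg adjustment, threshold 0.05), with the library as a block for the interaction. Scripts were tested on simulated data. Shares were compared between genotypes with exact two-sided permutation tests over 20 assignments (scipy 1.17.1). The planned sign-flip test of the share of dividing cells by gene set is not read, because the rule fixes that contrast. Named for the genotype comparison were up to 8 genes in each direction with the largest change among those that passed, with a mean of 20 CPM or more and no overlap, predicted genes left out; for dividing against non-dividing cells, the 12 largest in each direction of at least 50 CPM; and list members, some of which are not reported here. Alternatives were DESeq2 1.42.0, RLE size factors, other limits on UMIs and low counts, and each library left out in turn. Promoters came from RefSeq (GRCm38.p6), gene positions from GRCm38; 32235 of 32285 gene IDs were in the annotation.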

Additional observations from a re-analysis of the deposited data

Results flagged for a closer look

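Pf4 stood out because its genotype difference was tested to differ between dividing and non-dividing cells. The interaction was 1.09 ± 0.10 on the log2 scale (edgeR adjusted p = 0.0069), the 1 gene of 12323 that passed, while 1230 had an unadjusted p under the threshold. In dividing cells the Nlrp3-/- libraries were at 678, 404 and 634 CPM and wild type at 277, 466 and 257 CPM, so that the groups overlapped. The test lost Pf4 without Nlrp3-/- replicate 1 (adjusted p = 0.062 by edgeR) and without Nlrp3-/- replicate 3 (0.092). With 1 library left out the interaction itself stayed at 0.959 to 1.16.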

How the results depend on the processing

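No paired analysis was called for, since libraries with the same replicate number did not deviate together (correlations of −0.27, −0.40 and −0.12 over genes). With the replicate block 14 genes passed between genotypes in place of 41, and exact permutation within numbers gave p from 0.25 to 1 for the shares.

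The count of 41 genes was 405 with no filter on low counts, 308 by DESeq2 and 21 without cells with granule genes (13 of them among the 41), and 17 to 567 with 1 library left out, the highest without wild-type replicate 3 and the lowest without Nlrp3-/- replicate 3. The interaction passed for 275 genes with no filter, 18 by DESeq2 and, added after seeing the data, 2 without cells with granule genes. It passed for 0 to 6 genes with 1 library left out. The counts of 0 came without Nlrp3-/- replicates 1 and 3, where 1152 and 823 genes had an unadjusted p under 0.05. Xist, Nlrp3, Ddx3y, Tpm3-rs7 and Chil3 passed under all 18 alternatives. AC149090.1, Cenpv, Gcsh, Ifitm1, Itgb3bp, Lcn2, Spp1 and Ss18l2 kept their direction and missed the threshold under 5 (Cenpv) to 9 (Lcn2) of them. Folr2 was not recomputed.

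Differences in shares, in percentage points of Nlrp3-/- minus wild type, changed sign as follows. The share of dividing cells was −0.18 without Nlrp3-/- replicate 2 (range with 1 library left out −0.18 to 4.35). The excess of replication over mitosis was −2.27 at 4 or more Mki67 and Top2a UMIs, −0.90 without thinning and −0.29 without Nlrp3-/- replicate 2 (−0.29 to 1.58). MHC class II was −3.77 without cells with granule genes, −0.49 and −0.80 without wild-type replicates 1 and 3 and −1.51 without Nlrp3-/- replicate 3 (−1.51 to 2.1). The granule genes were 1.20 without Nlrp3-/- replicate 1 (−12.6 to 1.20). With 1 library left out, Ly6c2 and Ccr2 stayed at −14.0 to −5.93, C1q at 7.45 to 13.2, and Arg1 and Spp1 at 4.88 to 10.3. The difference in percent dividing between cells with and without a gene set was 9.70 to 11.1 for Ly6c2 and Ccr2, −7.70 to −5.73 for C1q, −7.25 to −4.96 for MHC class II, −8.24 to −6.43 for Arg1 and Spp1 and 28.8 to 34.0 for the granule genes. Other settings moved several of these by over 1.5 times, among them the following. The share of dividing cells, 2.61, was 0.76 with each cell thinned to 2000 UMIs and the whole rule applied again. It was 1.20 at 4 or more Mki67 and Top2a UMIs. Arg1 and Spp1, 7.26, was 16.9 without thinning and 12.9 at a marker sum of 1. The granule genes, −5.44, were −9.63 without thinning, and Ly6c2 and Ccr2, −9.89, was −5.88 at a marker sum of 3. Replication over mitosis, 0.46, was 1.94 without the most doublet-like barcodes and 3.81 without cells with granule genes. The difference in percent dividing between cells with and without a gene set also moved without thinning. It went from 10.3 to 15.6 for Ly6c2 and Ccr2, −6.95 to −11.3 for C1q and −7.59 to −3.88 for Arg1 and Spp1. For the granule genes it went from 31.2 to 19.2 at a marker sum of 1. The causes were not tested. With 3 libraries a group, no share could pass the threshold.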

Other observations

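The rule took a small share of all barcodes with 2 or more Mki67 and Top2a UMIs, of which there were 2004 to 2864 per library. Of barcodes that failed it on 1 criterion, 47 to 120 per library did so through the osteoclast genes Ctsk and Acp5, 5 to 63 through collagen genes and 15 to 49 through Cd79a or Siglech. Another 113 to 230 had only 1 UMI of Csf1r, Adgre1 and Cd68 together. Of markers of other cells, those of neutrophils took the largest share of the members' UMIs in wild type, at 0.658% to 0.916%, and the monocyte list took 0.684% to 0.827% there. T and NK cell markers made up at most 0.0164%, and hemoglobin and other erythroid genes 0.00152% to 0.0339% in wild type and 0.0338% to 0.146% in Nlrp3-/-.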
